A study of Mus musculus with 4 samples.

Results

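Cplx2 and 8 other genes of the machinery that releases secretory granules were followed in mouse bone marrow hematopoietic stem cells (HSCs) that lacked Cpt1a (KO) or carried it (Control). The 9 members are Cplx2, the SNARE genes Vamp8, Snap23, Stx3 and Stx4a, the Munc18 gene Stxbp2, the Munc13 gene Unc13d, and the GTPase genes Rab27a and Rab27b. They are 9 of 55401 gene models. Cplx2 was chosen because its level differed between KO and Control in these same libraries, so that difference is described and not tested. The other 8 were listed for their role in granule release, with earlier results of these data known. All 9 were matched by symbol and passed the filter on low counts.

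Granules are released when their membrane fuses with the plasma membrane. SNARE proteins on the granule and on the plasma membrane zip together into a helical bundle that pulls the membranes into contact. Munc18 and Munc13 proteins guide and prime that assembly, RAB27 proteins bring granules to the membrane, and complexins bind the assembled bundle and gate the final step until calcium rises. Mast cells, neutrophils, platelets and cytotoxic lymphocytes use this machinery, and human mutations in UNC13D, STXBP2 or RAB27A cause immune disorders of defective granule release.

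The libraries were made from sorted bone marrow cells, long-term HSCs by GEO's labels and HSPCs (a class that also takes in progenitors) by the study's text. KO mice were Cpt1a fl/fl animals with Vav1-Cre, and Control mice were Cpt1a fl/fl animals, labelled WT. Both were on a C57BL/6 background, and the study's methods give adult mice of both sexes as its default. Vav1-Cre acts in the whole blood system, so the Cpt1a allele was deleted in the mature blood cells of KO mice as well as in their HSCs. CPT1A loads long-chain fatty acids for entry into mitochondria. The analysis covers 2 KO and 2 Control libraries. The labels do not tell whether each library stands for another animal, and p-values then rest on a spread among libraries that may be technical. The libraries held 34083159 and 33909781 estimated counts in KO 1 and KO 2, and 20589218 and 23291747 in Control 1 and Control 2. Cpt1a itself was at 11.5 and 19.2 TPM in the KO libraries and at 37.0 and 35.6 TPM in the Control libraries, in the direction of the labels. TPM is a level per transcript length, scaled to the same sum in each library. In bulk RNA, fewer cells of a type and less RNA per cell cannot be told apart.

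Markers of other cells differed between the groups. A gene was called where its adjusted p, over 14635 tested genes, was under 0.05 in edgeR's quasi-likelihood test of KO against Control. Over all tested genes 0.451% were called higher in KO and 0.212% lower, and the median log2 fold change was 0.01. The marker lists were chosen with earlier results of these data known. Their counts are therefore a description and not independent support for a difference. Of 14 genes of the B lineage list, 11 were called higher, and all 14 had a log2 fold change above 0. The list summed to 1340 and 1030 TPM in KO against 347 and 481 TPM in Control. In the mast cell and basophil list 4 of 19 tested genes passed, all higher in KO. Of the 19, 15 had a log2 fold change above 0 and 4 below 0, the lowest at -0.45. The list had summed levels of 580 and 638 TPM in KO and 282 and 196 TPM in Control. Of 11 tested erythroid genes 6 were called lower, and all 11 had a log2 fold change below 0. Their list summed to 558 and 650 TPM in KO and 1400 and 1340 TPM in Control. These calls rest on the test, since limma on TPM called 0 genes of any list, and the B lineage list had 4 called genes without KO 1. In edgeR's test 0 of 12 HSC markers passed, with 2 lower at an unadjusted p under 0.05, and their sums were 559 and 559 TPM in KO and 515 and 576 TPM in Control. DESeq2, and edgeR without Control 1, called Mecom lower (12.9 and 13.8 TPM in KO, 17 and 28.9 TPM in Control), a transcription factor gene of HSCs. Of the 12 HSC markers, 8 had a log2 fold change below 0 and 4 above 0, with a median of -0.17. All 12 had counts in KO 1 and in both Controls, and 11 had counts in KO 2. Kit, Procr and Slamf1 were present in every library.

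Cplx2 was the member that stood apart. It encodes complexin 2 and lies at chr13:54371349-54383917 on the plus strand of mm10 (ENSMUSG00000025867.8), where the annotation used here holds 1 transcript of 4928 bases. Its level was 36.0 TPM in KO 1 and 21.9 TPM in KO 2, against 4.90 TPM in Control 1 and 4.50 TPM in Control 2. The estimated counts behind these levels were 4068 and 2487 in KO and 343 and 356 in Control. Both KO libraries were thus well above both Control libraries, KO 1 by 7.66 times and KO 2 by 4.65 times the Control mean. The Control libraries lay close together, whereas KO 1 was 1.65 times as high as KO 2. The fitted fold was 5.98, a log2 fold change of 2.58 with an SE of 0.25 and a 95% interval of 2.0 to 3.16. The SE and interval were derived from the F statistic of that fit. Since Cplx2 was chosen for this difference, they do not count as support for it, and the fold may be too large. RSEM's own interval for the level lies around its posterior mean TPM and does not cover the spread of animals. It was 33.6 to 35.7 TPM in KO 1 (posterior mean 34.7) and 20.2 to 21.9 TPM in KO 2 (21.05). In Control 1 it was 4.16 to 5.13 TPM (4.64) and in Control 2 3.83 to 4.71 TPM (4.27). The 36.0 TPM of KO 1 thus lies above its interval.

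The coding sequence of Cplx2 has 405 bases, as has that of its nearest relative Cplx1, and 79.8% of them are identical. The first 120 bases of each, from the GENCODE transcripts, are shown to let the reader judge how well reads of the paralogs can be told apart, with the mismatches in capitals.
Cplx2: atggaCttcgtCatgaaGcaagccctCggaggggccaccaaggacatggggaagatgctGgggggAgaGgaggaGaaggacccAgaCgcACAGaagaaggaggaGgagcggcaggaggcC
Cplx1: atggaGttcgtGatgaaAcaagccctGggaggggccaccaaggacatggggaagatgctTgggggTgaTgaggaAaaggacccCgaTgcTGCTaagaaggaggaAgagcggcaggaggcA
There are 16 mismatches in this stretch, and the longest run shared by the full coding sequences is 32 bases. Over the whole Cplx2 transcript, 4.26% of windows of 50 bases occur in another gene model. RSEM gave a posterior SD of 0 counts to Cplx2 in every library, as it did to all 9 members.

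Complexins form a family of 4 in the mouse. Cplx1, Cplx3 and Cplx4, whose known sites of action are mainly neurons and the retina, had 0 counts in all 4 libraries. A count of 0 allows up to 0.0441 CPM in KO and 0.0684 CPM in Control over the group (3 counts, counting error only), where CPM is a count scaled to a common library total. Cplx2 therefore made up 100% of the deposited complexin TPM in every library.

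The RefSeq start of Cplx2 lies 68.8 kb upstream of the first base of the counted model. Windows of 250 bases before to 50 bases after the start were taken from RefSeq (GRCm38.p6), which had entries for 7 of the 9 members. Those of Cplx2 and Vamp8 are shown because these members had the largest positive and the largest negative fitted change, with CCCNNGGG in capitals, the core letters bound by EBF1 (its own reverse complement, so 1 search covers both strands). The letters were chosen after Ebf1 was seen to follow the Cplx2 pattern.
Cplx2, chr13:54302306-54302605, plus strand: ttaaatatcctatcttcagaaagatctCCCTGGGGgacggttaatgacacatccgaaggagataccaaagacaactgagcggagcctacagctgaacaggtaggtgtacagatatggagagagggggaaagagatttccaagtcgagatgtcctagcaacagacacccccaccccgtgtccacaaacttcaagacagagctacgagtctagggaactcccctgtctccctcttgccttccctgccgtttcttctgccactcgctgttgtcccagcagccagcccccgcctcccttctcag
Vamp8, chr6:72390618-72390917, minus strand: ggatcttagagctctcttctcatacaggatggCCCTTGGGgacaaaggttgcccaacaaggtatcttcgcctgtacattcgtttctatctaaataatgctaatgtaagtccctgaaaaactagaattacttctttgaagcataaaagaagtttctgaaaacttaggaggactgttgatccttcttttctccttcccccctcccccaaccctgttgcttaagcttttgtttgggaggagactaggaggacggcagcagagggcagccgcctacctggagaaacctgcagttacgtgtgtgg
Each window holds 1 match, as do 13.7% of all 32851 windows at least once. Of the 7 members with a window, 4 hold a match (Cplx2, Vamp8, Stx4a and Stxbp2). AGATAA, the letters of a GATA site, was searched on both strands and was found in 0 of the 7 members and in 11.2% of all windows. CANNTG, the E-box, its own reverse complement, was found in 5 of the 7 and in 72.3% of all windows. The Cplx2 window had a GC content of 53.3% and the Vamp8 window 46.7%, against a median of 52.7%. The Stx4a and Stxbp2 windows, which hold CCCNNGGG, were at 64.3% and 61.3%. Snap23 (60.3%) and the 2 windows of Rab27a (61.3% and 51.3%) hold none. The share of windows with a match at a like GC content was not counted, so 4 of 7 is not read as an excess. The Stx4a window lies 17.5 kb from the start of the counted model. A match describes letters and is not evidence of a bound site.

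**Figure D1:**
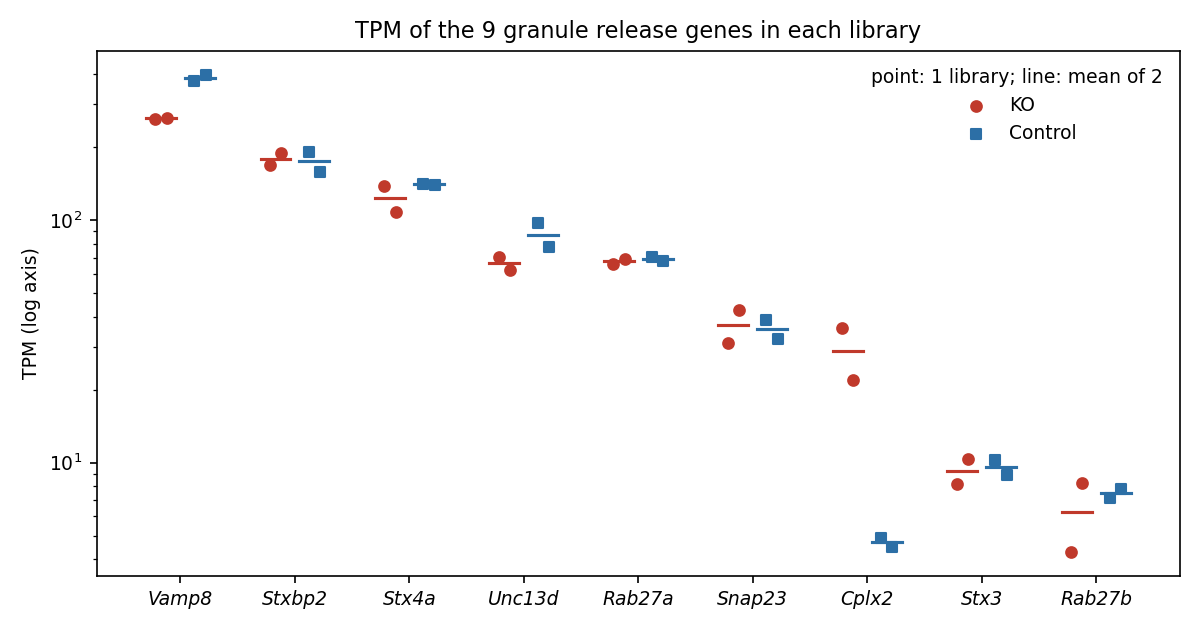
TPM on a log axis of the 9 members, with KO (circles) left of Control (squares), 1 point per library and a line at the mean of the 2 libraries. Cplx2 was at 36.0 and 21.9 TPM in KO and 4.90 and 4.50 TPM in Control, and Vamp8 was the most abundant member in every library.

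Vamp8 had the largest fitted change of the 4 SNARE members. It encodes the granule SNARE VAMP8, or endobrevin, which acts in the release of mast cell, platelet and pancreatic granules, and lies at chr6:72385223-72390703 (ENSMUSG00000050732.9). Its level was 261 and 264 TPM in KO and 373 and 398 TPM in Control. The KO libraries agreed closely with each other and both lay below both Control libraries. The log2 fold change was -0.56 (SE 0.11, 95% interval -0.81 to -0.30), which did not pass the test over all genes (edgeR adjusted p = 0.106, unadjusted p = 0.00101). It passed in 3 of 13 alternatives, DESeq2, no filter and without Control 1 (adjusted p = 2.02e-07, 0.0263 and 0.0435), and the adjusted p ranged from 2.02e-07 to 0.632 over the 13. Among the VAMP genes Vamp2, Vamp3 and Vamp8, Vamp8 took 77.3% and 75.0% of the TPM in KO and 82.6% and 73.1% in Control, ranges that overlap.

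The SNAREs of the target membrane did not pass the test. Snap23, which supplies a pair of the helices of the bundle outside neurons, lies at chr2:120567671-120601255 and was at 31.0 and 42.5 TPM in KO and 38.9 and 32.5 TPM in Control. KO 2 was the highest library and KO 1 the lowest, so the groups overlapped. On counts its log2 fold change was -0.22 (SE 0.161, adjusted p = 0.719), while the TPM means were 36.8 ± 8.14 in KO and 35.7 ± 4.50 in Control (SD, n = 2 each). TPM divides a count by transcript length, and RSEM's mean length for Snap23 was 2074 bases in KO 2 and 2597 in KO 1, against 2572 in Control 1 and 2716 in Control 2.

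Stx4a encodes syntaxin 4, the plasma membrane syntaxin of mast cell degranulation, at chr7:127824294-127849019. Its level was 138 and 108 TPM in KO and 141 and 140 TPM in Control, so both KO libraries lay below the Controls, KO 1 by little. Its log2 fold change was -0.27 (SE 0.132, 95% interval -0.58 to 0.03, adjusted p = 0.531). Stx3, at chr19:11775118-11819403, encodes syntaxin 3, a plasma membrane and granule syntaxin of mast cells and neutrophils. It was at 8.16 and 10.3 TPM in KO and 10.2 and 8.93 TPM in Control, which overlap (log2 fold change -0.21, SE 0.282, adjusted p = 0.907). Its level was uncertain, since RSEM's posterior mean was 14.8 and 16.7 TPM in KO and 19.5 and 18.02 TPM in Control.

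Syntaxin 4 transcripts thus exceeded those of syntaxin 3 in every library. Stx3 made up 5.60% and 8.68% of the TPM of both genes in KO and 6.78% and 6.0% in Control.

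The Munc18 and Munc13 members did not pass the test either. Stxbp2 (chr8:3630955-3643644) encodes Munc18-2, the partner of syntaxins in blood cell granule release. It was at 169 and 189 TPM in KO and 192 and 158 TPM in Control, so the KO libraries lay inside the Control range. Its log2 fold change was -0.04 with a 95% interval of -0.31 to 0.23 (SE 0.117, adjusted p = 0.964), and its sign turned in 3 of the 13 alternatives.

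Unc13d (chr11:116062095-116077961) encodes Munc13-4, which primes granules in lymphocytes, mast cells and platelets. It was at 70.7 and 62.4 TPM in KO and 97.0 and 77.1 TPM in Control, so both KO libraries lay below both Controls. Its log2 fold change was -0.21 (SE 0.119, 95% interval -0.49 to 0.06, adjusted p = 0.59). It took 92.4% and 79.9% of the TPM of Unc13a to Unc13d in KO and 91.0% and 98.0% in Control, with KO 2 lowest.

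Rab27a was the steadiest member. It encodes a GTPase that docks granules and melanosomes and lies at chr9:73044854-73097629. Its level was 66.1 and 69.0 TPM in KO and 70.6 and 67.8 TPM in Control, and the groups overlapped. Its log2 fold change was -0.08 with a 95% interval of -0.35 to 0.20 (SE 0.119, adjusted p = 0.926). Rab27b, its paralog on chromosome 18 with 69.2% identity over the aligned coding sequence, was the least abundant member over the 4 libraries. It was at 4.29 and 8.25 TPM in KO and 7.17 and 7.79 TPM in Control. KO 2 was 1.92 times as high as KO 1, and the Controls lay between them. Its log2 fold change was -0.39 with a wide 95% interval of -1.19 to 0.40 (SE 0.343, adjusted p = 0.788). Its share of the TPM of both Rab27 genes was 6.09% and 10.7% in KO and 9.22% and 10.3% in Control.

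**Figure D2:**
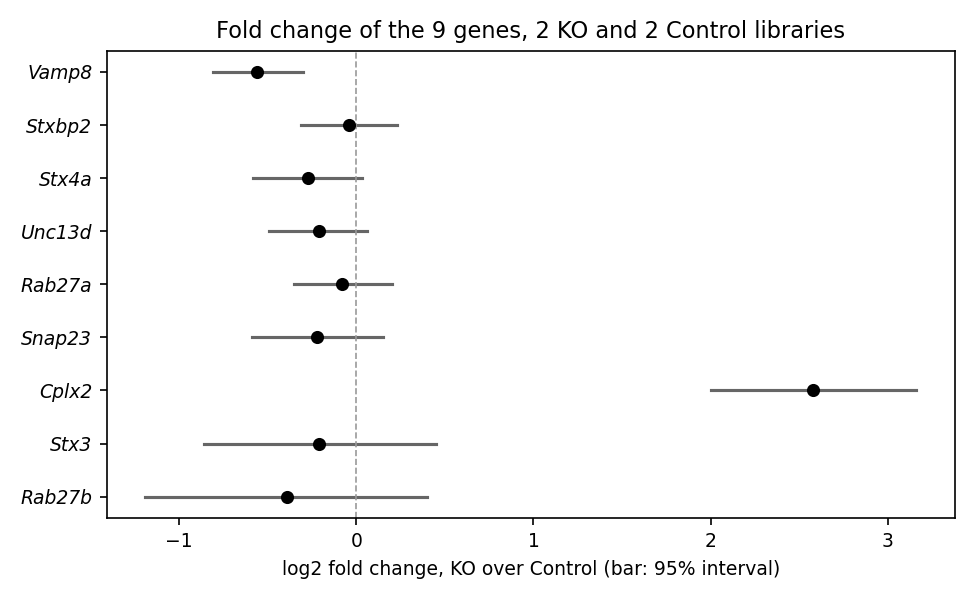
Fitted log2 fold change of KO over Control for the 9 members, ordered by mean TPM, with points at the estimate and bars for the 95% interval. Cplx2 was at 2.58, and the other 8 ranged between -0.56 and -0.04. Cplx2 was chosen for its difference, so its bar is a description and not a test.

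Across the 9 members, 1 was called higher (Cplx2) and 0 lower at an edgeR adjusted p under 0.05, where 0.451% of 14635 tested genes were called higher and 0.212% lower (0.663% in either direction). Since Cplx2 was chosen by this contrast, nothing is read from its call, which was lost with RSEM's effective lengths and with limma on TPM. Of the other 8, 0 passed, and 1 (Vamp8) had an unadjusted p under 0.05. DESeq2 called Vamp8 alone among these 8. All 8 had a fitted log2 fold change below 0, with a median of -0.22 beside 0.01 for all genes tested, but those of Snap23 and Stxbp2 turned positive with TPM. Their summed level was 748 and 754 TPM in KO and 929 and 890 TPM in Control, to which Vamp8 contributed most. The neutrophil list also had lower sums in KO, at 6440 and 6620 TPM in KO and 11900 and 8240 TPM in Control. Of its 13 tested genes 1 (Elane) was called lower, 7 were lower at an unadjusted p under 0.05, 11 had a log2 fold change below 0, and the median was -0.56. Its part in the level of the 8 members was not tested. In TPM the groups did not overlap for 4 of the 9 members, with Cplx2 above and Vamp8, Stx4a and Unc13d below, and this held for 39.9% of all tested genes (23.1% above and 16.8% below). In CPM the groups did not overlap for 6 of the 9 members, the chosen Cplx2 among them, and for 42% of all tested genes. Both counts are for either direction, since the share of all genes in 1 direction was not counted in CPM.

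The members spanned a wide range of levels. By the mean TPM over the 4 libraries the order was Vamp8 (324), Stxbp2 (177), Stx4a (132), Unc13d (76.8), Rab27a (68.4), Snap23 (36.2), Cplx2 (16.8), Stx3 (9.41) and Rab27b (6.88). Neighbours whose ranges over the libraries overlap were Unc13d and Rab27a, Snap23 and Cplx2, Cplx2 and Stx3, and Stx3 and Rab27b. Cplx2 was 9th of the 9 in both Control libraries, 6th in KO 1 and 7th in KO 2. Set against Snap23, a subunit of the bundle that complexins bind, Cplx2 had a TPM ratio of 1.16 and 0.514 in KO and 0.126 and 0.139 in Control. Against Vamp8 the ratio was 0.138 and 0.0828 in KO and 0.0131 and 0.0113 in Control.

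Genes of the same families and pathway gave no call. Of 108 listed genes 107 had a gene model, 82 were tested, and 20 had 0 counts in all libraries. Of the 82, 0 passed at an adjusted p under 0.05 with edgeR, where 0.663% of 14635 tested genes passed. So small a share leaves few calls for lists of this size, here and in the lists below. At an unadjusted p under 0.05, 3 of the 82 were higher and 6 lower. Their median log2 fold change was 0.00, beside 0.01 over all genes. DESeq2 called 3 of the listed genes higher and 4 lower, and 614 higher and 503 lower over all genes. The other SNARE genes held the smallest adjusted p, that of Vamp5 (0.256), a VAMP of muscle and other tissues, at 234 and 230 TPM in KO and 382 and 298 TPM in Control. Both KO libraries lay below both Controls. In the same list, fitted log2 fold changes were -0.71 for Vamp2 (SE 0.229, adjusted p = 0.358), the synaptic VAMP, 0.63 for Stx6 (SE 0.179, adjusted p = 0.287), a syntaxin of the trans-Golgi network, and 0.54 for Snap29 (SE 0.189, adjusted p = 0.406), which acts on internal membranes.

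Most calcium sensors of regulated release were not detected. Of 17 synaptotagmin and Doc2 genes, 12 had 0 counts in all libraries and 2 were tested, Syt11 and Syt3. Syt1 and Syt2, the sensors of fast synaptic release, were among the 12. Syt11, a synaptotagmin without calcium binding, was at 3.0 and 7.12 TPM in KO and 3.31 and 3.27 TPM in Control, and Syt3 at 1.20 and 0.17 TPM in KO and 0.51 and 0.48 TPM in Control, with overlap in both (adjusted p = 0.962 and 0.959). Syt9 had 9 and 95 counts in KO and 0 in both Controls, too few libraries with counts for the test. DESeq2, which did not use this filter, called it higher.

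Among Rab27 effectors and related Rab genes 0 of 15 tested passed, at a median log2 fold change of -0.12. Those of smallest p were Rabgef1 (-0.61, SE 0.234, adjusted p = 0.436), Rab3d (-0.43, SE 0.208, adjusted p = 0.527), a GTPase of secretory granules, Madd (0.26, SE 0.138, adjusted p = 0.569), an exchange factor of Rab3 and Rab27, and Sytl3. Sytl3, an effector of Rab27, had 13 and 31 counts in KO and 0 in both Controls (adjusted p = 0.556). Sytl2 was called higher without Control 1, and was at 2.18 and 1.87 TPM in KO and 0.65 and 0.00 TPM in Control.

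Of the other Munc18, Munc13 and complexin genes 0 of 6 tested passed. These included Stxbp3 (log2 fold change -0.49, SE 0.279, adjusted p = 0.596), Unc13b (0.35, SE 0.711, adjusted p = 0.952) and Baiap3 (-1.54, SE 1.12, adjusted p = 0.715). Of 13 genes for SNARE recycling and the exocyst, the tether that holds vesicles at the membrane, 0 passed, with Exoc6b (-0.44, SE 0.267), Exoc4 (0.19, SE 0.144), Exoc3 (-0.16, SE 0.133) and Napg (0.24, SE 0.235) of smallest p. All 24 granule biogenesis genes were tested and 0 passed, within -0.29 to 0.40 on the log2 scale. Srgn, the proteoglycan core of granules, was the example with the smallest p (-0.24, SE 0.0996, adjusted p = 0.468), at 851 and 886 TPM in KO and 935 and 1073 TPM in Control. The others were Dtnbp1 (0.40, SE 0.178), Bloc1s2 (0.39, SE 0.234) and Hps1 (-0.21, SE 0.167).

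**Figure D3:**
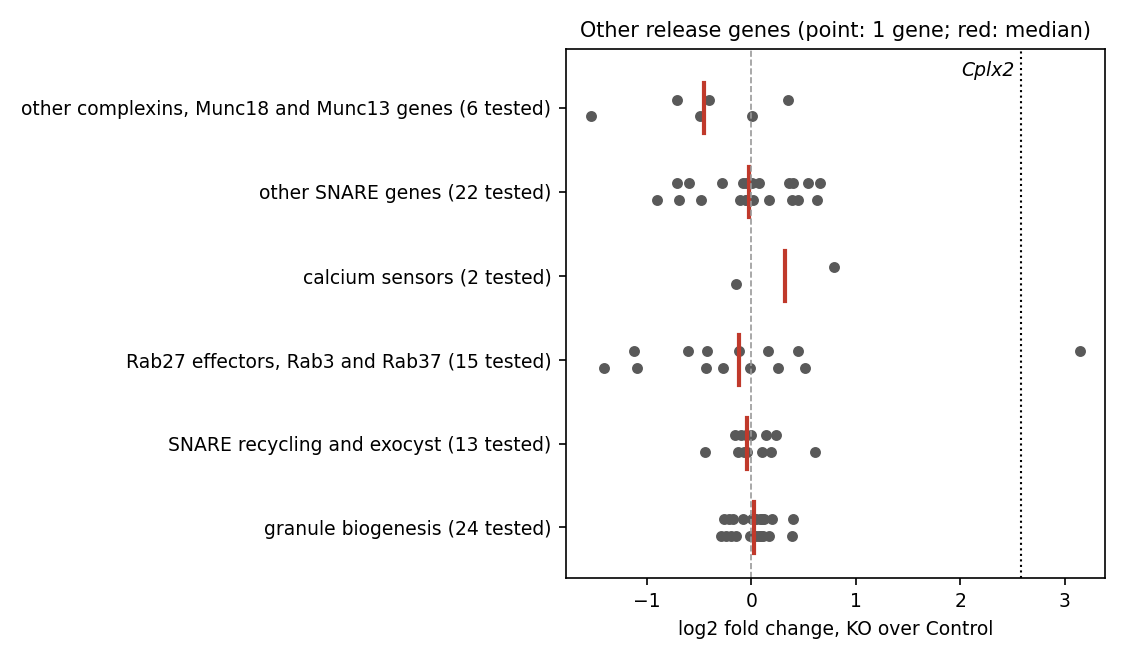
Fitted log2 fold change of KO over Control for the tested genes of 6 lists, 1 point per gene, with the list median in red and Cplx2 as a dotted line at 2.58. Sytl3 is counted in its list and not drawn, since it had 0 counts in both Controls. All points but 1 lie below the Cplx2 line, and that one, Sytl2, was not called.

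The pattern of Cplx2 over the libraries was nearest to that of 5 other genes, by the Euclidean distance between centred log2(TPM + 1) values over the 4 libraries. Nearest was Blnk (distance 0.0557), which encodes an adaptor of B cell receptor signalling, at 48.6 and 28.4 TPM in KO and 6.82 and 6.06 TPM in Control. Ebf1 (0.136), a transcription factor of early B cells, was at 17.6 and 10.6 TPM in KO and 1.66 and 1.60 TPM in Control. Like Cplx2, these were highest in KO 1 and near-equal in the Controls. Spib (0.214), Lin28b (0.237) and Akap2 (0.247) followed, and Spib and Akap2 were listed at 0 in both Controls. A likeness over 4 libraries is a description, and Blnk and Ebf1 belong to the B lineage list.

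The marker levels beside Cplx2 were as follows. Of 14 B lineage genes, 13 were higher in KO 1 than in KO 2, as Cplx2 was. The share of all tested genes in that order was not counted, so such counts, here and below, do not set a list apart. The defining gene Cd79a was at 74.7 and 51.2 TPM in KO and 2.22 and 8.54 TPM in Control. In the mast cell and basophil list 9 of 20 genes were higher in KO 1 than in KO 2, among them Mcpt8 (45.5 and 29.4 TPM in KO, 17.3 and 17.8 TPM in Control), and the 4 called genes were lower in KO 1 than in KO 2. The called genes were Cma1 (95.9 and 123 TPM in KO, listed at 0 in both Controls), Mcpt4 (81.6 and 95.5 TPM in KO, 0.08 and 0.00 TPM in Control), Tpsb2 (47.8 and 60.1 TPM in KO, listed at 0 in both Controls) and Cpa3 (90.5 and 116 TPM in KO, 32.2 and 18.8 TPM in Control), which encode granule proteases. The IgE receptor genes did not pass the test. Ms4a2 was at 13.3 and 13.6 TPM in KO and 8.25 and 4.26 TPM in Control, and Fcer1a at 3.93 and 7.08 TPM in KO and 9.71 and 0.00 TPM in Control. Among plasma cell and neuronal genes, which are also known places of Cplx2 expression, edgeR called none and DESeq2 called 1 of each list higher, Irf4 and Map2. Irf4, a transcription factor of plasma cells and activated lymphocytes, was at 3.27 and 0.62 TPM in KO and 0.31 and 0.28 TPM in Control, highest in KO 1. Map2, a neuronal microtubule protein gene, was at 1.49 and 4.03 TPM in KO and listed at 0 in both Controls. Sdc1 was at 13.01 and 13.4 TPM in KO and 18.4 and 17.1 TPM in Control, Jchain at 1.46 and 0.67 TPM in KO and 5.87 and 2.76 TPM in Control, and Syn1 at 0 in all 4 libraries. Syp was at 1.47 and 5.41 TPM in KO and 0.20 and 0.00 TPM in Control. Its counts were 83 and 23 in KO, an order opposite to that of TPM, and 7 and 0 in Control. Of 13 neuronal genes 8 had 0 counts in all libraries, and the 4 tested had log2 fold changes above 0. Of 5 tested plasma cell genes 1 was above 0 and 4 below 0. The part of other cell types in the Cplx2 difference was not tested.

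**Figure D4:**
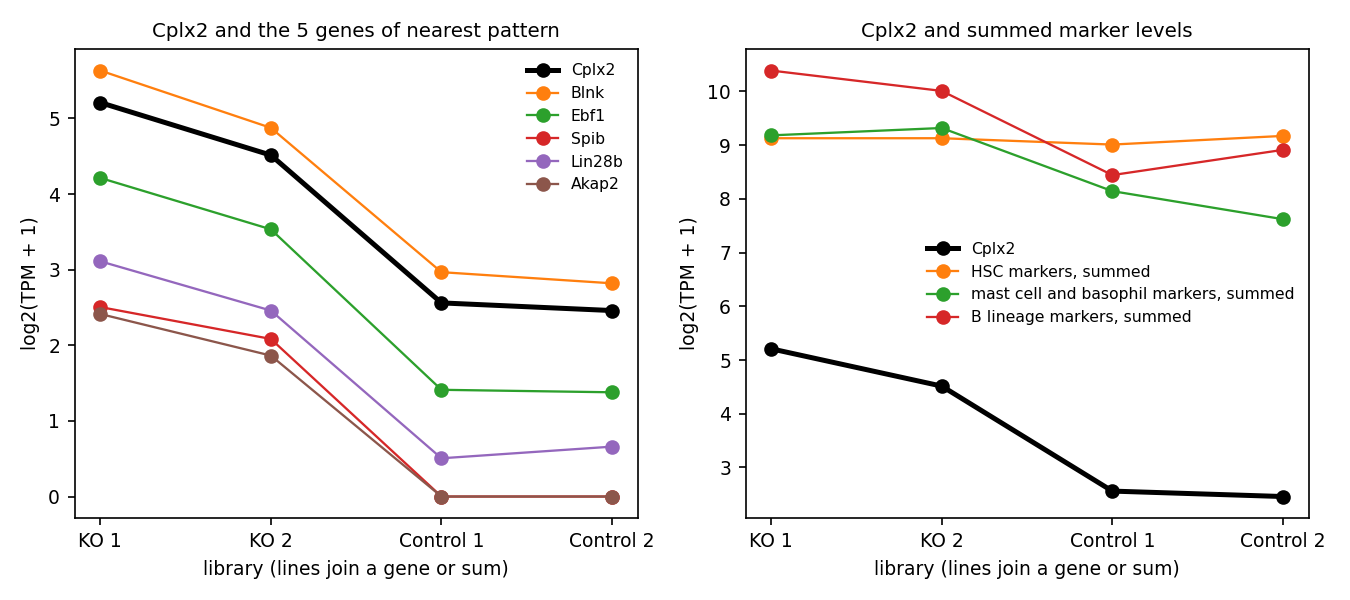
Log2(TPM + 1) in the 2 KO and 2 Control libraries for Cplx2 and its 5 nearest genes (left), and for Cplx2 and the summed TPM of 3 marker lists (right), with lines joining the values of 1 gene or list. Cplx2, Blnk and Ebf1 were highest in KO 1 and low in both Controls, the mast cell sum was highest in KO 2, and the HSC sum stayed between 515 and 576 TPM.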

How the data were processed

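Members and gene lists were chosen with earlier results of these data known. Polyadenylated RNA of sorted cells was made into directional libraries (per the labels). STAR, RSEM and the mm10 build are named in the submitters' processing notes. Versions, annotation and strand setting were not given in the sources used here. The deposited expected counts per gene come from RSEM and are not normalized, and the authors' files also give TPM and its interval bounds, read here as a signal. GENCODE M21 gave symbols to 55141 of 55401 models.

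Rounded expected counts entered edgeR 4.0.16 (R 4.3.3, quasi-likelihood F test, robust=TRUE, TMM, filterByExpr with minimum count 10, genotype only, two-sided) on 14635 genes, with Benjamini-Hochberg adjustment over them. The threshold for a call was an adjusted p of 0.05, whatever the fold. Fold changes are KO over Control. The biological coefficient of variation was 0.471. An exact permutation test of 2 against 2 libraries cannot go below p = 0.333. The 2 KO libraries differed by more than counting noise in 71.9% of genes, and the 2 Control libraries in 73.5%. Alternatives used DESeq2 1.42.0, limma 3.58.1 on log2(TPM + 1) and log2(TPM + 0.1), other factors and filters, RSEM's effective length and posterior means, a replicate block, and each library left out. Effective lengths, posterior SDs and posterior mean counts are deposited RSEM columns. The fit was tested on simulated data that varied less between libraries than these do. That test therefore does not show how the fit performs at the variation seen here.

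Named genes were every member, up to 4 genes of smallest p in each related list, called mast cell genes, set defining markers, Cpt1a and the 5 genes nearest to Cplx2. Sytl2, Syt9, Syt1, Syt2, Stx2, Mcpt8, Irf4, Map2, Mecom and Elane, those first named in the closing section, and the sequence motif were chosen after their values were seen. Vamp7 and Mcpt6 had no model under that symbol and are not analysed here. Some items are not reported here.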

Additional observations from a re-analysis of the deposited data

How the results depend on the processing

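Cplx2 kept its direction in all 13 alternatives, with log2 fold changes of 2.20 to 2.89, but was no longer called with RSEM's effective lengths (2.58) or with limma at a pseudocount of 1 (2.35) or 0.1 (2.55) TPM, and 0 members were called higher in those 3 fits. Over all genes, 3 were then called higher and 1 lower with effective lengths, and 0 with either limma fit. DESeq2 called 614 higher and 503 lower, against 66 and 31 in the main test, no filter 111 and 85, and the fits without 1 library 24 to 238 higher and 18 to 144 lower. Vamp8 was called with DESeq2 (-0.56) and no filter (-0.55), and its range without 1 library was -0.58 to -0.52, called without Control 1, so that 1 member was called lower in these 3 fits and 0 otherwise. Snap23 turned to 0.01 with effective lengths and 0.03 with both limma fits. Stxbp2 turned to 0.04 with both limma fits, and ranged from -0.15 to 0.07 without 1 library. The other 5 members kept their direction and were not called in any alternative. The causes were not tested.

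Of the related genes, DESeq2 called 3 higher (Stx6, Snap29, Syt9) and 4 lower, among them Vamp2, Vamp5 and Rabgef1. Without 1 library 0 to 1 (Sytl2) were called higher and 0 to 2 (Stx2, Vamp5) lower. Signs turned for Syt11 (0.59 with effective lengths, 0.41 and 0.48 with limma), Napg (-0.12, -0.06 and -0.06), Hps1 (0.05 in all 3), Syt3 (-0.01 with limma at 0.1, -1.15 to 1.59 without 1 library) and Unc13b (-0.55 to 0.91 without 1 library). Over all marker lists, called genes numbered 16 higher and 7 lower. They numbered 3 and 0 with effective lengths, 0 and 0 with limma, 15 lower with DESeq2 and 11 lower with no filter, and ranged from 8 to 19 higher and 4 to 17 lower without 1 library. The B lineage list had 4 called genes without KO 1 and 0 with effective lengths or limma, and the mast cell list 8 with DESeq2 and 0 with limma. The erythroid list had 3 called lower without KO 1.

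RSEM's posterior mean TPM was 253 in KO and 364 in Control for Vamp8, 134 in Control for Stx4a, and 65.2 and 65.7 for Rab27a in KO and Control. It was 15.7 and 18.8 for Stx3, which then made up 11.8% and 12.3% of both syntaxins in KO and Control. Posterior means give genes without a count a small level, so the complexin share of Cplx2 was 97.4% in KO and 81.2% in Control. Deviations of same-numbered libraries from their group means correlated at -0.0239. With 2 libraries per group this check cannot settle whether replicate numbers pair the libraries, and the labels do not say. With the replicate block, 1 member was called higher and 0 lower, Cplx2 was at 2.54, and 62 genes were called higher and 36 lower.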

Other observations

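The nearest tested genes on either side of Cplx2 on chromosome 13, 5 before and 5 after it, gave no call. The neighbour with the smallest p was Sfxn1, 263 kb before Cplx2, at 64.1 and 62.1 TPM in KO and 81.1 and 61.8 TPM in Control (log2 fold change -0.21, SE 0.141, edgeR adjusted p = 0.67). Hrh2, a histamine receptor gene 135 kb before Cplx2, was at 4.71 and 5.29 TPM in KO and 2.4 and 7.4 TPM in Control. Thoc3, an mRNA export factor gene 74.9 kb after it, was at 49.6 and 56.1 TPM in KO and 52.1 and 46.1 TPM in Control (log2 fold change 0.05, SE 0.145).

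Values of granule cargo genes, chosen after they were seen, were as follows. Gzmb, a granzyme of cytotoxic lymphocytes, was at 13.3 and 24.4 TPM in KO and 1.53 and 2.21 TPM in Control (log2 fold change 3.29, SE 0.525, edgeR adjusted p = 0.0395). Both KO libraries were above both Controls, with KO 2 highest. It was the 1 gene of the cytotoxic cell list that was called, and that call was lost without KO 1, without KO 2, with RSEM's effective lengths and with limma. Of the 6 tested genes of that list 4 had a log2 fold change below 0, and the list summed to 169 and 168 TPM in KO and 203 and 209 TPM in Control. Nkg7, its most abundant gene, was at 152 and 141 TPM in KO and 192 and 206 TPM in Control. Elane, neutrophil elastase, was at 350 and 387 TPM in KO and 1160 and 889 TPM in Control (log2 fold change -1.51, SE 0.138, edgeR adjusted p = 0.00665).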
